A study of Homo sapiens with 4 samples.

Results

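The interferon response genes are transcripts that a cell raises when interferon or foreign nucleic acid is sensed, and 37 of them were followed here in lung cancer cells that carry a lentivirus. A gene was counted by its symbol, current or older (RIGI is listed on the array as DDX58), and every probe of it was taken, whatever its signal. Of the 37 genes, 34 had a probe in the annotation used, with 49 probes in all, among the 24526 probes and 16923 named genes of the array. STAT2, HERC6 and USP18 had none and were not analysed here.

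A549 is a human lung adenocarcinoma cell line. A549/146b cells were transduced with the lentiviral vector pLemiR carrying the human pre-miR-146b hairpin, and A549/vec cells with the empty pLemiR vector. Each cell-line is 1 population of transduced cells selected with puromycin at 2 µg/ml, with virus packaged in an embryonic kidney line and a red fluorescent protein expressed from the vector's viral promoter. Both cell-lines were grown together on 2 occasions and gave 1 Illumina bead array each per occasion, so that there are 2 arrays for A549/146b and 2 for A549/vec. Both cell-lines carry the vector and the selection, and no untransduced A549 cells were among the samples, so the 2 cell-lines differ by the hairpin and by their separate derivation, and what both share cannot be measured by comparing them.

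Interferons are secreted proteins that bind receptors on the same and on neighbouring cells. The type I receptor acts through the kinases JAK1 and TYK2 on a complex that holds STAT2 and IRF9 and binds the interferon-stimulated response element (ISRE) in promoters. Type II interferon acts on promoters through the gamma-activated site (GAS). The genes so raised encode proteins that recognise or destroy viral RNA, block entry into the cell, tag proteins with the ubiquitin-like ISG15, and sense further foreign RNA. Many of them keep a low level without interferon.

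The hairpin gives rise to a mature microRNA from either arm. Their sequences from RefSeq (GRCh38.p14) are shown because they are the only designed difference between the cell-lines, with the seed (bases 2 to 8) in capitals. The 5p microRNA lies at chr10:102436520-102436542 and the 3p at chr10:102436557-102436578, both on the + strand, and their seeds differ.
hsa-miR-146b-5p: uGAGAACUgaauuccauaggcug
hsa-miR-146b-3p: gCCCUGUGgacucaguucuggu

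Promoters of the interferon response genes carried the core letters of the ISRE far more often than promoters at large. RefSeq promoters (GRCh38.p14) run 250 bases before to 50 bases after a transcript start, 300 bases in all, and 29 of the 37 genes had at least 1. The ISRE core was searched as GAAANNGAA and the GAS as TTCNNNGAA, on both strands. The 2 motifs share the letters GAA, and a stretch that holds both was counted for both. The ISRE core was found in 20 of the 29 genes (69.0%), against 9.86% of 27305 genes in the table, and 16 of the 29 held it at least 2 times. Counted by promoter, it was in 24 of 38 (63.2%), against 8.11% of 35116 promoters. The GAS was found in 10 of the 29 genes (34.5%), against 9.38% of all genes. A match is a description of letters, not a bound site.

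Promoters of 5 genes are shown so that the motif can be set beside the array values below. ISG15 (chr1:1013247-1013546, + strand), IFI6 (chr1:27672143-27672442, − strand) and HERC5 (chr4:88456869-88457168, + strand) belong to genes detected on all 4 arrays, and IFI44L (chr1:78620198-78620497, + strand) to a gene detected on none. OAS1 (chr12:112906712-112907011, + strand) belongs to the gene with the largest difference among the 21. Capitals mark the ISRE core on either strand, with overlapping matches run together.
ISG15: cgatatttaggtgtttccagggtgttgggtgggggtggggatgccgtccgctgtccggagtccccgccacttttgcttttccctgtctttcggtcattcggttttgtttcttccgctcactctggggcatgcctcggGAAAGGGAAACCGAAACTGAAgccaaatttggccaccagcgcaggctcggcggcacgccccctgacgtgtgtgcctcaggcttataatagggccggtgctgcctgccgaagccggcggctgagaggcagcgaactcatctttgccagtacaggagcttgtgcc
IFI6: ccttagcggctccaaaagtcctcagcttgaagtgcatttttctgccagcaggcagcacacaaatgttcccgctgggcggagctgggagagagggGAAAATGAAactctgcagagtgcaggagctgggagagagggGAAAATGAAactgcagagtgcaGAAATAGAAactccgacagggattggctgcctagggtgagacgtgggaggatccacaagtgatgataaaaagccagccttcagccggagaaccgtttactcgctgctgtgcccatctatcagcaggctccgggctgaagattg
HERC5: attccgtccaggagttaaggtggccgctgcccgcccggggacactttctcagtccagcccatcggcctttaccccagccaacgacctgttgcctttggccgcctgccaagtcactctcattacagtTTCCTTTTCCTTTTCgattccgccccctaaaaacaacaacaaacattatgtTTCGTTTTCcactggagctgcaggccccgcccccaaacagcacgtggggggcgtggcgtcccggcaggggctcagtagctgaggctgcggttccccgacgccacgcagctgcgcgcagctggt
IFI44L: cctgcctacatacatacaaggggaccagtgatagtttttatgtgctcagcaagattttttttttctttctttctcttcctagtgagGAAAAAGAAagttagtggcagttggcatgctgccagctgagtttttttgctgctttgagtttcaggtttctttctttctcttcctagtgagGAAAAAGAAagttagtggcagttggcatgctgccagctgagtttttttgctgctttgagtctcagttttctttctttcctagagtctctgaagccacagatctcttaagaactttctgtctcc
OAS1: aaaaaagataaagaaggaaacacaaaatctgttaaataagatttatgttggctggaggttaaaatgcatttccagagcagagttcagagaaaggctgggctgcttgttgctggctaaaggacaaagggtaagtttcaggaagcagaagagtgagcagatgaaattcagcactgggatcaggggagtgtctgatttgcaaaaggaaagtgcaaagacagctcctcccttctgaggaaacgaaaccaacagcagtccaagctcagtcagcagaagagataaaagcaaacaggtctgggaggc
ISG15, IFI6 and HERC5 each held 3 matches, which in HERC5 read on the opposite strand, and IFI44L held 2. The OAS1 window held no match of these letters, and 1 of the GAS. The search asked for exactly 2 bases between GAAA and GAA. The stretch ggaaacgaaacc in the OAS1 window, with 1 base between them, was therefore not counted, and other spacings were not searched.

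**Figure D1:**
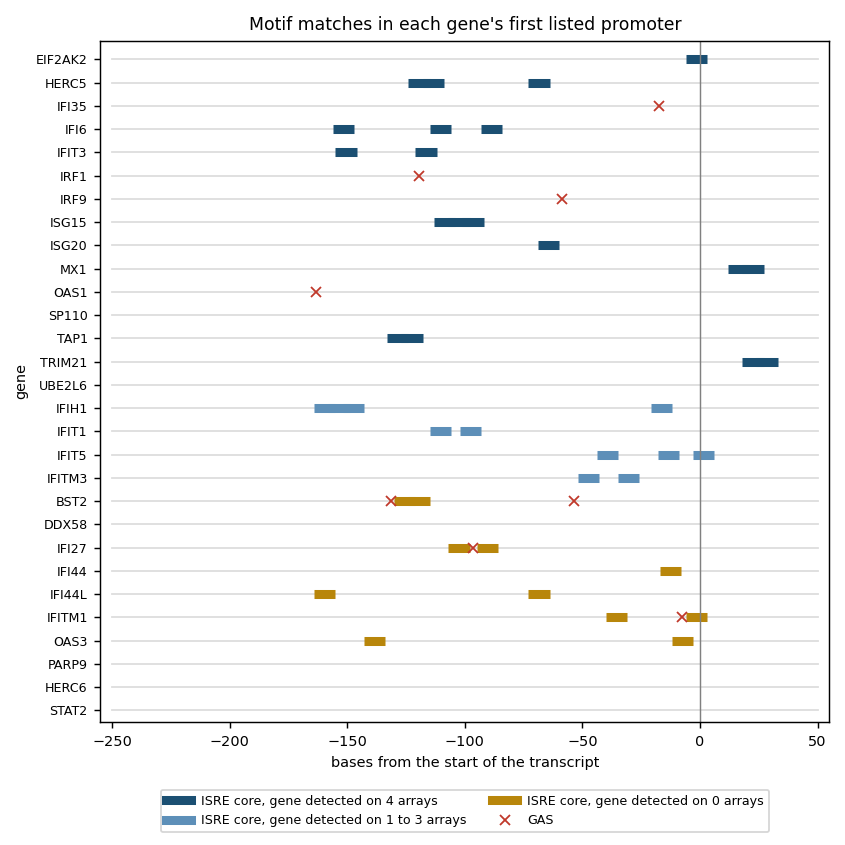
Matches of the ISRE core (bars) and the GAS (crosses) in the first listed promoter of each of the 29 genes, by distance in bases from the transcript start. Bar colour gives the number of arrays on which the gene was detected, and bars stand in genes of all 3 detection classes.

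The cells expressed 21 of the 34 genes with a probe, and several classical strong responders were not detected. A probe was called detected at a detection p under 0.01, the share of negative control beads as bright as the probe, and expressed where it was detected on at least 1 of the 4 arrays. Of the 49 probes, 27 (55.1%) were expressed, against 43.1% of all probes of the array, and 20 (40.8%) were detected on all 4 arrays, against 38.1%. By gene, 16 were detected on all 4 arrays by at least 1 probe (EIF2AK2, HERC5, IFI35, IFI6, IFIT3, IFITM2, IRF1, IRF9, ISG15, ISG20, MX1, OAS1, SP110, TAP1, TRIM21 and UBE2L6). Another 5 were detected on 1 to 3 arrays (IFIH1, IFIT1, IFIT2, IFIT5 and IFITM3).

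The other 13 genes were detected on no array. They were IFI27, IFI44 and IFI44L, which are commonly read as signatures of an interferon response, the synthetases OAS2 and OAS3 and their relative OASL, the GTPase MX2, the membrane proteins IFITM1 and BST2, the transcription factor IRF7, the RNA sensor DDX58, TRIM22 and PARP9. Signals of the 22 undetected probes, which include further probes of IFIT3, OAS1, SP110 and UBE2L6, lay between 57.5 and 100.8 on the normalized scale, and the lowest detected signal per array was 111 and 118 in A549/146b and 111 and 104 in A549/vec. For 14 of the 22 even the lowest detection p over the arrays was 0.05 or more. IFI44L, an interferon-induced protein of the cytoplasm, had signals of 64.5 and 64.9 in A549/146b and 60.4 and 65.1 in A549/vec. A signal of this kind sets a limit by array background and does not show that a transcript is absent.

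DDX58, IFITM1 and PARP9 were just short of detection on all 4 arrays. DDX58, which encodes the RNA sensor RIG-I, had signals of 95.7 and 101 in A549/146b, against 91.6 and 86.7 in A549/vec, with detection p-values of 0.013 to 0.026. IFITM1, which restricts virus entry at the cell surface, had 88.0 and 97.6 in A549/146b and 89.5 and 90.7 in A549/vec. PARP9, a partner of the ubiquitin ligase DTX3L, had 94.8 and 88.5 in A549/146b and 85.7 and 79.5 in A549/vec. The A549/146b arrays were the brighter ones for DDX58 and PARP9 and overlapped with A549/vec for IFITM1, and none of the 3 was tested.

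The ISRE core was not confined to the detected genes. It was found in 9 of 15 genes with a promoter that were detected on 4 arrays (60.0%), in 4 of 4 detected on 1 to 3 arrays and in 7 of 8 detected on none (87.5%).

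**Figure D2:**
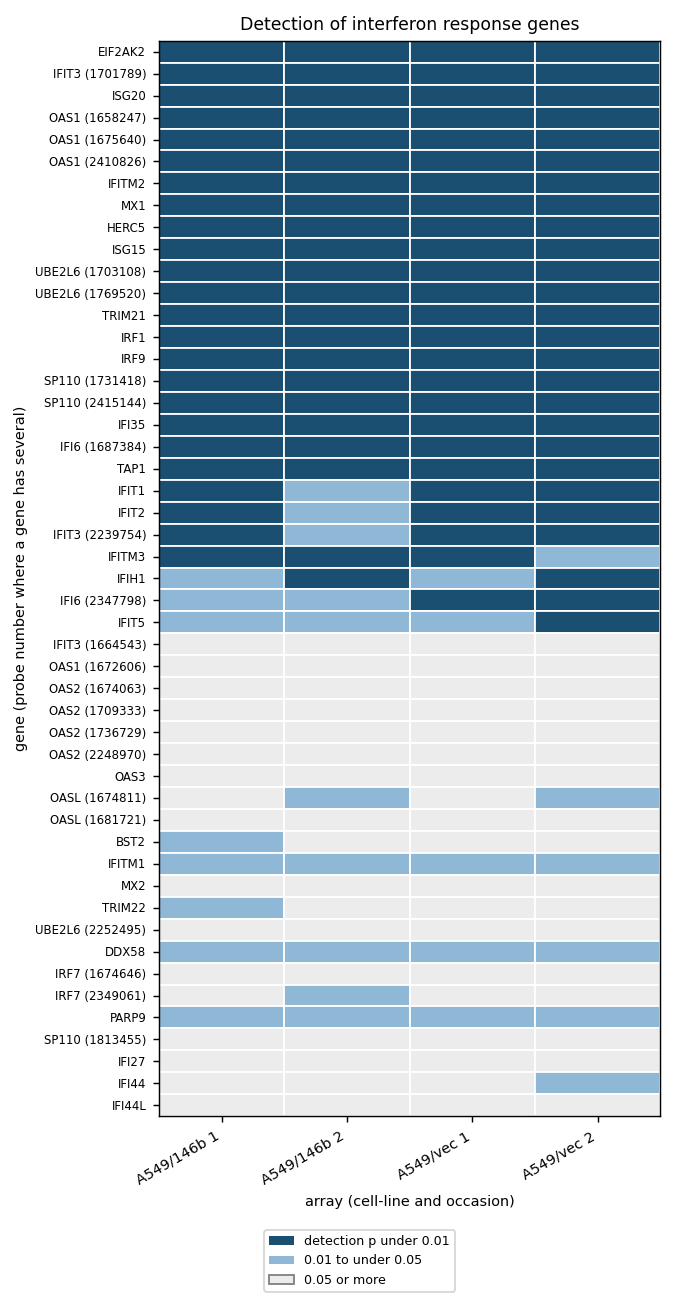
Detection of each of the 49 probes (rows) on the 4 arrays (columns), with shade for a detection p under 0.01, of 0.01 to under 0.05, and of 0.05 or more. 20 rows are dark on all 4 arrays and 22 on none.

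Between A549/146b and A549/vec, 1 of the 27 expressed probes of the interferon response genes differed at an adjusted p under 0.05. That probe was of OAS1 and was lower in A549/146b. Its share of the probes, 1 of 27, stands beside 0.928% of all 10559 expressed probes called in either direction, 0.492% called lower and 0.436% called higher. Differences were tested with limma on log2 signals with the occasion as a block, with Benjamini-Hochberg adjustment over every expressed probe. With 2 arrays per cell-line the standard error (SE), 0.14 on the log2 scale, comes almost wholly from the spread of all probes, and it gives a 95% confidence interval of ±0.28 around each difference. The difference of a probe that was not called may therefore lie that far to either side of its value. Among uncalled probes, the interval ran from 0.09 to 0.65 for IFI6 (ILMN_1687384) and from -0.73 to -0.16 for OAS1 (ILMN_1675640).

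Of the 27 probes, 15 were above and 12 below 0, between -0.55 and 0.37, with a median log2 difference of 0.01, against -0.0024 over all expressed probes. The median was 0.02 on occasion 1 and 0.0012 on occasion 2. At an unadjusted p under 0.05 there were 8 of the 27 probes, 4 higher and 4 lower, against 12.2% of all expressed probes. The higher ones were of IFI6, IFITM2, IFITM3 and HERC5. The lower ones were of IRF9 and, with all its expressed probes, of OAS1, so the even split by probe is not one by gene. The A549/146b arrays both lay above or both below the A549/vec arrays for 12 probes (44.4%, 7 above and 5 below), against 44% of all expressed probes, and 22% of those had both A549/146b arrays above. The sign was the same on both occasions for 21 of the 27 (77.8%), against 58.4% of all. The members' share of separated probes was thus near that of the array, while same-sign probes were more frequent, a count that several probes of 1 gene enter together. With 1 probe per gene (the brightest), 15 of 21 genes were above 0 and the median was 0.096, against 0.0088 over 8290 named genes. That median was 0.15 on occasion 1, against 0.02 over all named genes, and 0.03 on occasion 2, against 0.0042, and whether the list as a whole moved was not tested. Of the 27 probes, 2 (of IFI6 and IFIT5) were detected in no A549/146b array. Over the other 25, 14 were above 0 and 11 below, with a median of 0.01.

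**Figure D3:**
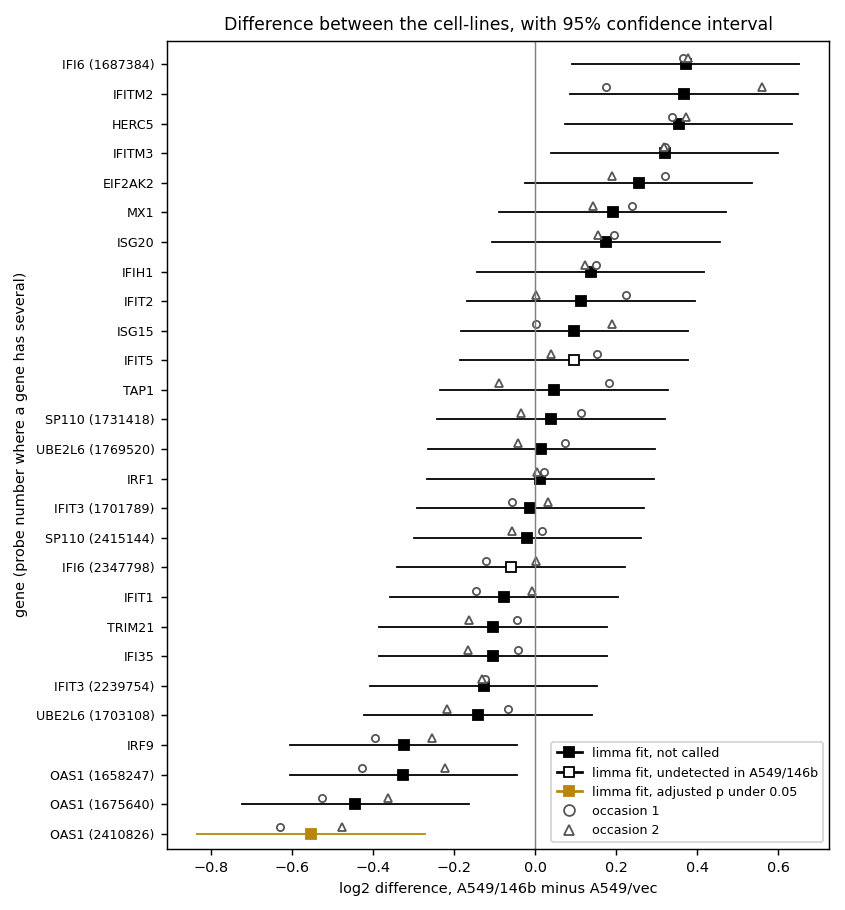
Log2 difference of A549/146b minus A549/vec for each of the 27 expressed probes, as the limma fit with its 95% confidence interval (squares and lines, open squares where A549/146b was undetected) and on occasion 1 and occasion 2 (open symbols). The fits run from -0.55 for OAS1 to 0.37 for IFI6, and 1 probe of OAS1 was called.

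OAS1 fell in A549/146b cells by 1 of its 3 expressed probes, and all 3 had values below 0. OAS1 is an oligoadenylate synthetase that is switched on by duplex RNA. Its probe ILMN_2410826 had normalized signals of 234 and 232 in A549/146b, against 362 and 323 in A549/vec. The 2 cell-lines did not overlap, and the A549/146b arrays lay close together (233 ± 1.42, against 343 ± 28.1 in A549/vec, SD, n = 2 each). A549/146b minus A549/vec was -0.63 (log2) on the first occasion, -0.48 on the other and -0.55 over both (SE 0.14, adjusted p = 0.025 from limma), so that the signal fell by 31.9%.

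A second probe of the same transcript (NM_001032409), ILMN_1675640, had 151 and 145 in A549/146b, against 218 and 186 in A549/vec, a log2 difference of -0.44 (SE 0.14, adjusted p = 0.10 from limma). ILMN_1658247, on transcript NM_002534, had 245 and 259 in A549/146b, against 330.1 and 303 in A549/vec, a log2 difference of -0.33 (SE 0.14, adjusted p = 0.31 from limma). Neither probe passed, although the arrays of the 2 cell-lines did not overlap on either. ILMN_1672606, on transcript NM_016816, was not detected, with 63.2 and 57.5 in A549/146b and 63.2 and 60.4 in A549/vec. The 4 probes measure 1 gene in the same 4 RNA samples and are not separate evidence. The call was lost under 6 of 8 other ways of processing, with adjusted p-values of 0.055 to 0.57 from limma (0.12 without the occasion as a block), and kept with quantile normalization and with a trended prior. Fits with 1 array left out also had to drop the occasion block, which would leave no residual degrees of freedom, and assume that the lone array varies like the pair of the other cell-line. In them the call was lost without A549/146b replicate 1, A549/146b replicate 2 or A549/vec replicate 1 (adjusted p = 0.49, 0.24 and 0.21 from limma) and kept without A549/vec replicate 2 (-0.64).

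**Figure D4:**
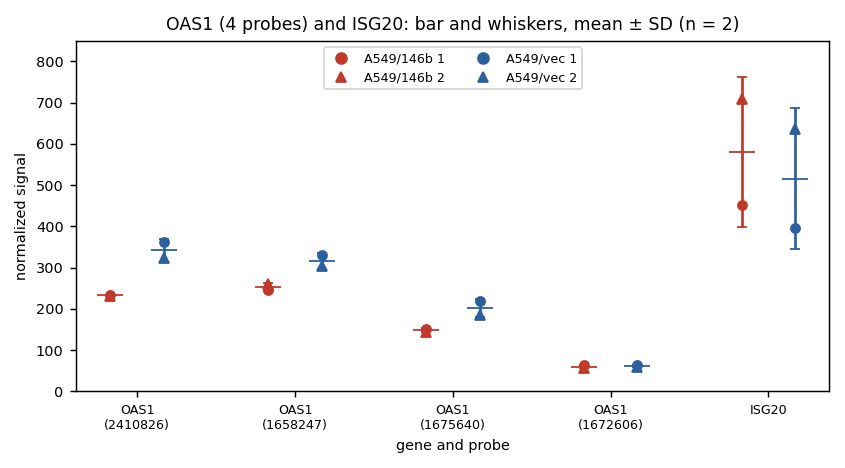
Normalized signal of the 4 probes of OAS1 and the probe of ISG20 on each array (points), with the mean and SD of each cell-line (n = 2). The 3 expressed OAS1 probes were lower in A549/146b on both occasions, and ISG20 was higher on occasion 2 in both cell-lines.

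The other RNA-binding and RNA-degrading effectors did not pass the test. This group of 10 genes had 19 probes, of which 10 were expressed, 4 above 0 and 6 below. EIF2AK2, the kinase PKR that halts translation when it binds duplex RNA, had 1465 and 1288 in A549/146b, against 1174 and 1129 in A549/vec. Both A549/146b arrays lay above both A549/vec arrays, and the log2 difference was 0.25 (SE 0.14, adjusted p = 0.47 from limma). The IFIT proteins, which bind RNA ends that lack the marks of host messages, stayed close to the limit of detection. IFIT1 had 131 and 108 in A549/146b and 145 and 109 in A549/vec. IFIT2 had 139.6 and 112 in A549/146b and 119.5 and 112 in A549/vec. Their cell-lines overlapped, with log2 differences of -0.08 for IFIT1 and 0.11 for IFIT2.

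IFIT3, which binds and stabilises IFIT1, was measured by 2 expressed probes. ILMN_1701789 had 129.6 and 121 in A549/146b and 135 and 118 in A549/vec. ILMN_2239754 had 127 and 103 in A549/146b and 139 and 113 in A549/vec. The differences were -0.01 and -0.13, with the cell-lines overlapping on both probes. IFIT5, which was detected on A549/vec replicate 2 only, had 106 and 114 in A549/146b, not above background, and 95.5 and 111 in A549/vec, and no fold is given for it. The confidence intervals of the IFIT1, IFIT2 and IFIT3 probes included 0.

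ISG20, an exonuclease that degrades RNA, varied more with the occasion than with the cell-line, and it was singled out after its values were seen. It had 452 and 708 on occasions 1 and 2 in A549/146b, against 395 and 636 in A549/vec. Between the cell-lines the log2 difference was 0.17 (SE 0.14, adjusted p = 0.68 from limma), with overlapping arrays. Occasion 2 minus occasion 1 was 0.65 within A549/146b, 0.69 within A549/vec and 0.67 over both (SE 0.14, adjusted p = 0.0027 from limma). No other of the 27 expressed probes was called between occasions, against 0.331% of all expressed probes, and the ISG20 call was lost with neqc (adjusted p = 0.14 from limma) and with wider filters on detection.

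Genes grouped here as restricting viruses, several of them at membranes or during entry, were above 0 in all expressed cases, without a call. Of 7 genes with 1 probe each, IFITM2, IFITM3 and MX1 were expressed, and on each of them both A549/146b arrays lay above both A549/vec arrays, as on 22% of all expressed probes. IFITM2, a membrane protein that blocks fusion of virus and endosome, had 1181 and 1064 in A549/146b, against 1046 and 723 in A549/vec. IFITM3, its close relative in late endosomes, had 148 and 127 in A549/146b, against 119 and 102 in A549/vec. MX1, a dynamin-like GTPase that traps viral nucleocapsids, had 194 and 181 in A549/146b, against 165 and 164 in A549/vec.

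The log2 difference was 0.37 for IFITM2 (SE 0.14, adjusted p = 0.23 from limma), with 0.18 on occasion 1 and 0.56 on occasion 2. It was 0.32 for IFITM3 (SE 0.14, adjusted p = 0.32 from limma), the same on both occasions, and 0.19 for MX1 (SE 0.14, adjusted p = 0.63 from limma). IFITM3 was near the limit of detection and was not detected on A549/vec replicate 2 (detection p of 0.013). IFITM2 and IFITM3 are closely similar in sequence, probe sequences were not used here, and whether a probe tells IFITM2 from IFITM3 was not tested. The other 4 genes of the group, IFITM1, MX2, BST2 (tetherin, which holds budding virus at the cell surface) and TRIM22, were not detected.

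In the ISG15 system, 3 of 5 genes had a probe and none was called. ISG15 itself, the ubiquitin-like modifier which interferon induces strongly, was near the limit of detection, with 122 and 134 in A549/146b, against 122 and 117 in A549/vec. All 4 arrays detected it, and the log2 difference of 0.10 (SE 0.14, adjusted p = 0.85 from limma) was close to 0 on occasion 1 and 0.19 on occasion 2. HERC5, the ligase that attaches ISG15 to new proteins, had 1104 and 1140 in A549/146b, against 874 and 881 in A549/vec. The cell-lines did not overlap, and the difference of 0.35 (SE 0.14, adjusted p = 0.26 from limma) was 0.34 and 0.37 on the 2 occasions.

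UBE2L6, the conjugating enzyme that hands ISG15 to HERC5, gave 2 expressed probes with overlapping cell-lines. ILMN_1769520 had 1081 and 1014 in A549/146b and 1028 and 1045 in A549/vec, a log2 difference of 0.01. ILMN_1703108, annotated to the same transcript, had 173 and 135 in A549/146b and 181 and 157 in A549/vec, a log2 difference of -0.14. The third, ILMN_2252495 on another transcript, was not detected.

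Among the sensors, neither expressed gene passed the test. IFIH1, the RNA sensor MDA5, was detected on the 2 arrays of occasion 2 only, with 99.0 and 119 in A549/146b and 89.2 and 109 in A549/vec. Its log2 difference was 0.14, and the cell-lines overlapped. TRIM21, which recognises antibody-coated virus in the cytosol, had 207 and 181 in A549/146b and 214 and 203 in A549/vec, a log2 difference of -0.10.

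Among the transcription regulators, IRF9 stood lowest. IRF9, the DNA-binding part of the complex that binds the ISRE, had 219 and 186 in A549/146b, against 288 and 222 in A549/vec. Both A549/146b arrays lay below both A549/vec arrays, by -0.39 on occasion 1 and -0.26 on occasion 2, and the log2 difference of -0.32 (SE 0.14, adjusted p = 0.32 from limma) did not pass. IRF1, a regulator raised by type II interferon through the GAS, had 346 and 348 in A549/146b and 341 and 347 in A549/vec, a log2 difference of 0.01. All 4 values of IRF1 lay close together.

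SP110, a nuclear body protein, gave 2 expressed probes with overlapping cell-lines. ILMN_1731418 had 305 and 316 in A549/146b and 282 and 324 in A549/vec, a log2 difference of 0.04. ILMN_2415144 had 186 and 190.3 in A549/146b and 183 and 198 in A549/vec, a log2 difference of -0.02. IRF7, the factor that amplifies type I interferon genes, was not detected by either of its probes.

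Of the remaining genes, IFI6 had the highest log2 difference of all 27 probes and was not called. IFI6, a small membrane protein that opposes cell death and limits flaviviruses, had 684 and 713 by probe ILMN_1687384 in A549/146b, against 531 and 548.7 in A549/vec. The cell-lines did not overlap, and the log2 difference of 0.37 (SE 0.14, adjusted p = 0.22 from limma) was 0.36 and 0.38 on the 2 occasions. The other IFI6 probe, ILMN_2347798 on transcript NM_022872, was detected only on the A549/vec arrays, with 108 and 112 in A549/146b and 118 and 112 in A549/vec. As it was not above background in A549/146b, no fold is given for it.

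IFI35, a partner of the interferon-induced protein NMI, had 424 and 429 in A549/146b, against 437 and 481 in A549/vec. Its A549/146b arrays lay below its A549/vec arrays, with a log2 difference of -0.10 that did not pass. TAP1, which carries peptides into the endoplasmic reticulum for display by MHC class I, had 1109 and 1143 in A549/146b and 977 and 1216 in A549/vec. The A549/vec arrays lay on either side of the A549/146b arrays, and the log2 difference was 0.05.

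**Figure D5:**
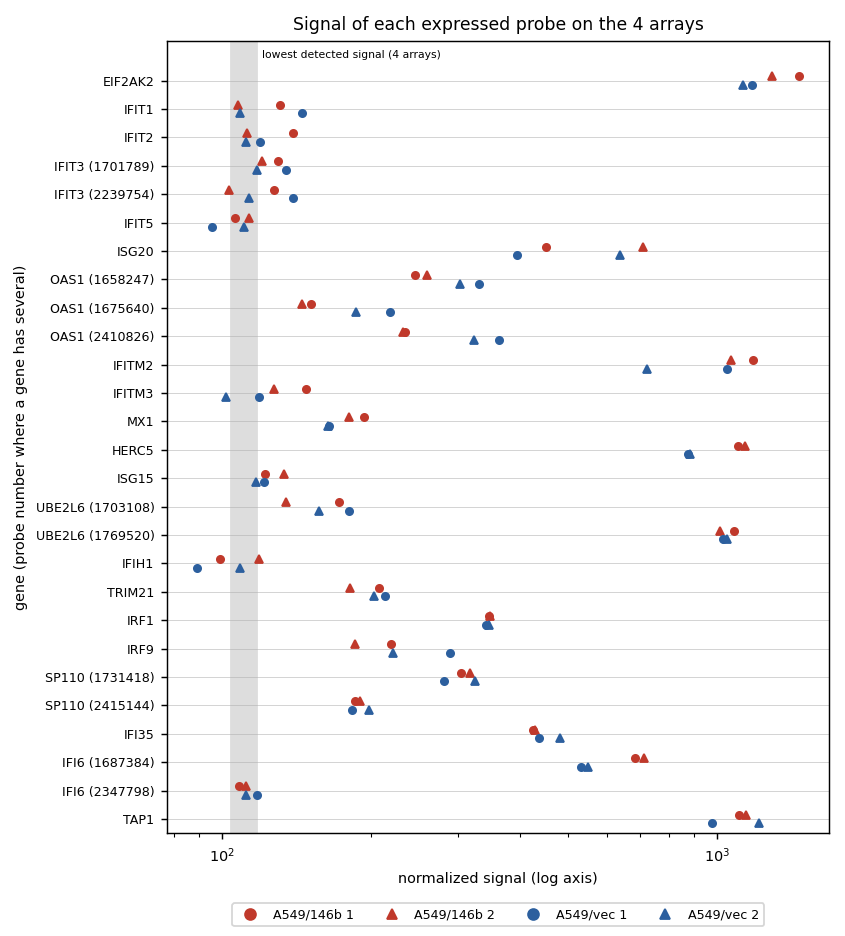
Normalized signal (log axis) of each of the 27 expressed probes on the 4 arrays, red for A549/146b and blue for A549/vec, circles for occasion 1 and triangles for occasion 2. The grey band spans the lowest detected signals of the 4 arrays, 104 to 118, and the IFIT genes, ISG15, IFIH1, IFITM3 and a probe of IFI6 lie in or near it.

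The ligands of the pathway were almost all undetected, and its receptors and kinases did not pass the test. Of 21 interferon genes with 1 probe each, only the probe of IFNA8, a type I interferon, was detected, with 199.8 and 196 in A549/146b, against 187 and 186 in A549/vec, a log2 difference of 0.08. Of 19 probes for receptors, JAK kinases and brakes on signalling, 13 were expressed and none was called, with 1 of 13 at an unadjusted p under 0.05, against 12.2% of all expressed probes. The 4 with the smallest p were IL10RB, a receptor chain for type III interferon (0.29), the phosphatases PTPN2 (-0.24) and PTPN6 (-0.20), and the type I receptor chain IFNAR2 (0.16 by ILMN_1765146, and -0.06 by ILMN_1791057), each as a log2 difference.

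Of 28 probes for nucleic acid sensing and relay, 15 were expressed and none was called, with 2 of 15 at an unadjusted p under 0.05, both lower, against 12.2% of all. The transcription factor IRF3, which switches on interferon genes, had 281 and 329.9 in A549/146b, against 417 and 343 in A549/vec. Its log2 difference of -0.31 was -0.57 on occasion 1 and -0.06 on occasion 2. ADAR, which edits duplex RNA, gave -0.31 by ILMN_2320964 and 0.18 by ILMN_1776777, both annotated to the same transcript. The DNA sensor CGAS, listed as C6orf150, gave 0.23, and the kinase TBK1 gave 0.22.

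Of 55 probes for other interferon-stimulated genes, 20 were expressed and 1 was called (0.928% of all expressed probes were), SAMD9, which was higher in A549/146b. At an unadjusted p under 0.05 there were 5 of 20, against 12.2% of all. SAMD9, an antiviral protein that blocks translation in poxvirus infection, had 234 and 184 in A549/146b, against 138 and 149 in A549/vec. The cell-lines did not overlap, and SAMD9 rose by a log2 difference of 0.53 (SE 0.14, adjusted p = 0.033 from limma), with 0.76 on occasion 1 and 0.30 on occasion 2. That call, too, was lost under 6 of 8 other ways of processing, and, in fits without the block, when any array but A549/vec replicate 2 was left out. The zinc finger antiviral protein ZC3HAV1 gave 0.41 by ILMN_1667068 (adjusted p = 0.16 from limma), with 0.09 and -0.0001 by its other probes. GBP2 gave 0.28, and LGALS3BP (-0.36) and PNPT1 (-0.30) lay below 0. The median over the 20 probes was -0.02, with 8 above 0 and 12 below.

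Of 24 probes for antigen processing and MHC class I, which interferon also raises, 14 were expressed and none was called, with 1 higher and 3 lower at an unadjusted p under 0.05, 4 of 14, against 12.2% of all. ERAP2, a peptidase that trims peptides for MHC class I, had 1867 and 1474 in A549/146b, against 2351 and 2309 in A549/vec. The cell-lines did not overlap, and the log2 difference of -0.49 (SE 0.14, adjusted p = 0.055 from limma) lay just outside the threshold. B2M, the light chain of MHC class I, gave 0.36 (adjusted p = 0.24 from limma), while TAPBP gave -0.34 by ILMN_1742450. Another TAPBP probe, ILMN_1782851, was detected on A549/vec replicate 1 only. It had 111 and 108 in A549/146b and 119 and 98.8 in A549/vec, and no fold is given for it. TAP2 gave -0.31 by ILMN_1759250 and 0.08 by ILMN_1777565. The median of the 14 probes was -0.13. The genes of 1 pathway thus lay on both sides of 0.

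On the 4 arrays 39.2% to 42.1% of probes were detected, and the mean signal before normalization was 452 and 412 in A549/146b and 394 and 480.1 in A549/vec, which held both the dimmest and the brightest array. Markers of the A549 epithelial line were expressed for 9 of 11 probes, while the epithelial adhesion molecule EPCAM and the listed marker AKR1C1 were undetected. Of the 9, 2 were above 0 and 7 below, with a median log2 difference of -0.19. That median was -0.38 on occasion 1 and 0.05 on occasion 2. The cadherin CDH2 was called higher in A549/146b (0.79, adjusted p = 8.5e-05 from limma). The keratin KRT19 had 2530 and 1708 in A549/146b and 3645 and 2369 in A549/vec (-0.50, adjusted p = 0.052 from limma). CDH1 gave -0.27, KRT8 -0.20, KRT7 -0.19 and AKR1B10 -0.03. KRT18 gave -0.20 by ILMN_1730848 and -0.13 by ILMN_1803408. ALDH1A1 lay above 0 at 0.20, with 0.38 on occasion 1 and 0.02 on occasion 2. Of the 9 probes, only that of CDH2 was called. KRT19 and CDH1 were below 0 on both occasions. On occasions 1 and 2, KRT8 gave -0.45 and 0.05, and KRT7 gave -0.52 and 0.14. The summed signal of the 9 probes was 40095 and 35639 in A549/146b and 42972 and 35393 in A549/vec, and the cell-lines overlapped in it. AKR1B10 alone had 18515 and 16923.5 in A549/146b and 18727 and 17481 in A549/vec, so the sum says little of the fainter probes. What part these markers have in the members' differences was not tested. Of 23 probes for leukocyte markers, CD14 and CD68 alone were expressed, with 4 probes, and the general leukocyte marker PTPRC was undetected. Of 7 probes for markers of the packaging line, those of LIN28B and INA were expressed, and none of either list was called or had an unadjusted p under 0.05. Across all expressed probes, differences between the cell-lines spread more on occasion 1 (SD 0.289) than on occasion 2 (SD 0.163), and for the members the SDs were 0.263 and 0.235. The difference was larger in size on occasion 1 for 18 of the 27 member probes. Samples of a cell-line came from the same population on separate occasions. The p-values therefore rest on the spread between cultures and arrays of 1 population, pooled over all expressed probes rather than taken from each probe.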

How the data were processed

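Total RNA of A549/146b and A549/vec cells was hybridised to Illumina HumanRef-8 bead arrays, 4 in all. The authors read signal intensity values and detection p-values (against negative control beads) in GenomeStudio, and in lumi 1.14 under R 2.11.1 corrected the background, stabilized the variance and normalized the arrays by robust splines. The deposited normalized intensity values proved to be on a linear scale, so log2 was taken. The deposited p-values served only as the filter on detection (under 0.01 on at least 1 array, 10559 of 24526 probes). The deposited intensity values before normalization were used for neqc, quantile normalization and median scaling.

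Cell-lines were compared with limma 3.58.1 in R 4.3.3, with the occasion (replicate number) as a block, since the paper's methods pair the cultures, and with Benjamini-Hochberg adjustment over all expressed probes and a threshold of 0.05. The fit had 1 residual and 1025 prior degrees of freedom (prior SD 0.143). With 2 arrays against 2, no permutation p can go below 0.333, and the number of arrays limits the precision. Deviations from the cell-line mean correlated at r = -0.05 between arrays of the same number. The fit was tested on simulated data first. Every simulated probe had the same SD of 0.143, so the simulation cannot show how the fit behaves where probes spread unequally. Probes carry 1 gene symbol (21834) or none (2692) in the platform annotation. Every member and all its probes are named, and of each other list the called probes and up to 4 with the smallest p. For some of these genes other probes are given too, and of the epithelial markers every expressed probe is named. The contrast between occasions was added after seeing the data. Members and lists were chosen with earlier results of these data known. Alternatives were the fit without the block, 3 other normalizations, 3 other filters, a trended prior, 1 probe per gene and leaving out each array.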

Additional observations from a re-analysis of the deposited data

How the results depend on the processing

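The direction of the OAS1 and SAMD9 differences held under every alternative run, and their calls did not. Counts of called probes, over all probes, members and the 5 pathway lists, were 98, 1 and 1. They were 12, 0 and 0 without the replicate block, 21, 0 and 0 with neqc, 40, 0 and 0 with median scaling, and 33, 0 and 0 for probes detected on all 4 arrays. They were 2, 0 and 0 with a detection p under 0.05, and 0, 0 and 0 with no detection filter (limma, 1984 probes at an unadjusted p under 0.05). With quantile normalization 84 probes were called and with a trended prior 72, OAS1 and SAMD9 among them. Fits with 1 array left out also dropped the block, with which no residual degrees of freedom would remain, so they mix cell-line with occasion, and they assume that the lone array varies like the other cell-line's pair. They gave 12 to 868 calls over all probes, 0 to 4 among members and 0 to 6 in the pathway lists. The 868, 4 and 6 came without A549/vec replicate 2, where IRF9 (-0.51), ISG20 (0.52) and OAS1 (-0.56 and -0.64) passed. Without A549/vec replicate 1, IFITM2 (0.63) passed and OAS1 did not, and without either A549/146b array no member passed. In such fits ISG20, which differed by 0.67 between occasions, gave -0.15 without A549/146b replicate 2 and -0.17 without A549/vec replicate 1, neither called, while within occasions it stayed at 0.19 and 0.16. The members' median of 0.01 was 0.029 with neqc, 0.0335 with median scaling, 0.0392 with a detection p under 0.05, 0.096 with 1 probe per gene, and -0.0083 to 0.0352 with 1 array left out. The median of the other interferon-stimulated genes, -0.02, was -0.0076 with no detection filter and -0.0336 to -0.0075 with 1 array left out. In fits with 1 array left out, the loss of the array and of the block come together and cannot be told apart. Causes of these shifts were not tested. Signals near background limit what can be said of the IFIT genes, ISG15, IFIH1, IFITM3 and the 22 undetected probes.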
